A study of Mus musculus with 9 samples.

Results

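Expression of autosomal genes was compared between germinal vesicle (GV) oocytes and primordial germ cells at embryonic day 12.5 (E12.5 PGCs). The genes compared were all autosomal genes with FPKM > 1 in at least one of these cell types, where FPKM is the number of sequenced fragments scaled to transcript length and to the size of the library. This left 13389 of 34953 autosomal genes and of 37980 genes listed in all. Of the 13389 genes, 8542 had FPKM > 1 in both cell types, 1859 in E12.5 PGCs only and 2988 in GV oocytes only. Each gene was described by its log2 ratio, log2 of (FPKM + 1) in GV oocytes over (FPKM + 1) in E12.5 PGCs, so that positive values stand for genes higher in GV oocytes.

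The series holds 9 RNA-seq libraries of mouse female germ cells, of which 3 are from E12.5 PGCs and 2 from GV oocytes, all of the C57BL/6 strain by the labels. According to the paper's Methods, E12.5 PGCs were sorted by FACS as Mvh-positive cells from XX genital ridges of Mvh-GFP (Mvh-cre; ROSA mT/mG) mice. In these mice Cre is expressed under the germ cell gene Mvh, and the ROSA reporter makes GFP after Cre has excised part of it. The labels give no further treatment for GV oocytes, whereas the Methods describe fully grown oocytes (FGO) taken from C57BL/6 females of 6 weeks, 46 to 48 h after an injection of PMSG, with the cumulus cells removed by hyaluronidase. The deposited tables give 1 FPKM value per gene and cell type, pooled by the authors over its libraries, so no spread between libraries, interval or test is given for any gene, and a difference is called here only by its size.

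PGCs are the embryonic precursors of eggs and sperm. In the female embryo they divide in the genital ridge, erase most of their DNA methylation and imprints, and then stop dividing and enter meiosis. The oocyte stays in the first meiotic prophase through its growth, builds the zona pellucida around itself, and stores mRNAs and proteins on which the embryo depends before its own genome is switched on. At the end of growth its transcription is largely silent, and it keeps a large intact nucleus, the germinal vesicle, until meiosis resumes.

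The promoters of 4 of the 15 genes with the largest log2 ratios are shown, because these genes had low values in E12.5 PGCs and were among the abundant transcripts of the oocyte. The sequences are from RefSeq (GRCm38.p6), run 5' to 3' on the strand of the gene from 250 bases before the start of transcription to 50 bases after it, and have every E-box (CANNTG, the motif of basic helix-loop-helix factors, read the same on both strands) in capitals. Zp3 encodes a zona pellucida glycoprotein (chr5:135979855-135980154, plus strand), Padi6 a protein of the cytoplasmic lattices of the oocyte (chr4:140742594-140742893, minus strand), Zar1 an RNA-binding protein that stores maternal mRNA (chr5:72581035-72581334, minus strand) and H1foo the linker histone of the oocyte (chr6:115944681-115944980, plus strand).
Zp3: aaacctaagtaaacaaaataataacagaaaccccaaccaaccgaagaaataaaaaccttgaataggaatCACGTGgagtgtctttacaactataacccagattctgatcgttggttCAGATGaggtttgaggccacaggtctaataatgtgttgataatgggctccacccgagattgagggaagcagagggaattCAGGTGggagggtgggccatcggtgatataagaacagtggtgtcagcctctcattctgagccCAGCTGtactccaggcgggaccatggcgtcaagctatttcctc
Padi6: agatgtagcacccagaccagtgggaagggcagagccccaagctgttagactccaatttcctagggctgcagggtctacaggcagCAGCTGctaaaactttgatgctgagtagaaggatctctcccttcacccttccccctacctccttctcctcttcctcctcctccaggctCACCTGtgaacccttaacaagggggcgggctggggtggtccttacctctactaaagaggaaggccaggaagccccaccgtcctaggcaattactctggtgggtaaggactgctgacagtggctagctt
Zar1: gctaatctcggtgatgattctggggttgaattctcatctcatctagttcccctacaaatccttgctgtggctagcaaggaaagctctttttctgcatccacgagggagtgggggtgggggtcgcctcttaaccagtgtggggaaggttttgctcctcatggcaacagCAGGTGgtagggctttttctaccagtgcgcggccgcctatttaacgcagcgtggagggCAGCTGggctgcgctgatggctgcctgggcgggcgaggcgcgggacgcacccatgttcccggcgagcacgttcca
H1foo: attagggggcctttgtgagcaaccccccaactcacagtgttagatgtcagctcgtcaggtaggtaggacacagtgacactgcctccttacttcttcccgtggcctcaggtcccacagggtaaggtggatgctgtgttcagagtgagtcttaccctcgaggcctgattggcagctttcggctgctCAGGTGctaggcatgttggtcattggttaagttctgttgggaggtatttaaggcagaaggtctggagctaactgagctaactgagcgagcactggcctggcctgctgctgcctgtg
In each of these promoters 1 E-box reads CACCTG, or CAGGTG on the other strand. It begins 55 bases before the start in Zp3, 78 in Padi6, 83 in Zar1 and 66 in H1foo, and Zp3 carries a further E-box reading CACGTG from 181 bases before the start. Of the 15 genes with the largest ratios, 7 were matched to a RefSeq promoter, and 5 of these 7 held CACCTG on either strand. The 3 whose promoters are not shown are Gm15698, 2410004A20Rik and E330017A01Rik, which also had low values in E12.5 PGCs. Gm15698 was at 2.87 FPKM there and at 2854 in GV oocytes. All 4 promoters shown hold CACCTG, so they do not represent the 7.

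Among the genes higher in GV oocytes, the largest ratios were those of genes scarce in E12.5 PGCs. The highest was that of Zar1, at 1.59 FPKM in E12.5 PGCs against 1942 FPKM in GV oocytes (log2 ratio 9.55). H1foo was at 2.41 and 2248 FPKM, Zp3 at 6.80 and 4779.6, and Padi6 at 5.81 and 4040.2. Gdf9, a growth factor that the oocyte sends to the granulosa cells, was at 2.79 and 2093 FPKM, Npm2, a nucleoplasmin that handles histones in the egg, at 2.44 and 2017, and Nlrp14, an NLR family gene of the oocyte, at 1.02 and 1082. The remaining genes of the 15 largest ratios were Gm15698, Gm16211, 2410004A20Rik, Pkd2l2, E330017A01Rik, Zp2, Mir5102 and Bcl2l10, with GV oocyte values between 405 and 2854 FPKM. Mir5102 is listed over a span of 3010073 bases that holds other genes, so its value is uncertain.

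In the other direction, the embryonic globin gene Hba-x was the gene with the highest FPKM in E12.5 PGCs, at 10452, and was at 10.2 in GV oocytes (log2 ratio -9.86). Hbb-y, another embryonic globin, was at 3378 and 9.60 FPKM, Hbb-bh1 at 504 and 1.64, and the near copies Hba-a2 and Hba-a1, which can share reads, at 1984 and 17.2 and at 1686 and 17.6. Phlda2, an imprinted gene that limits placental growth, was at 2242 and 5.78 FPKM, Utf1, a chromatin factor of pluripotent cells, at 434 and 2.25, and Peg12, another imprinted gene, at 109.9 and 0.346. Gstm3, a glutathione transferase, was at 321 and 0.223 FPKM and Pfas, an enzyme of purine synthesis, at 332 and 2.68. The other 5 of the 15 smallest ratios were the small nucleolar RNA genes Snord82, Snord49a, Snord100, SNORD58 and SNORD113, between 66.9 and 345 FPKM in E12.5 PGCs against listed at 0 in GV oocytes. All but SNORD113 are listed over spans of 1931 to 14737 bases, longer than such RNAs, and their values are uncertain.

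**Figure D1:**
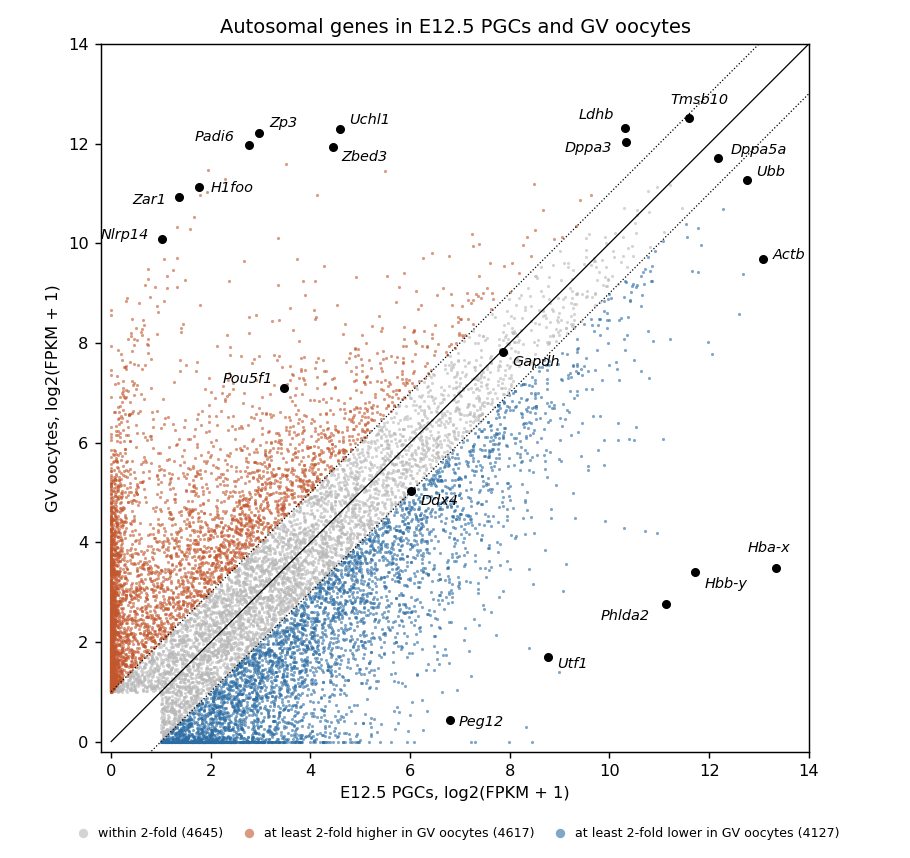
log2(FPKM + 1) of the 13389 autosomal genes in E12.5 PGCs (x axis) and GV oocytes (y axis). Each point is 1 gene, coloured by whether it was at least 2-fold higher (4617), at least 2-fold lower (4127) or within 2-fold (4645), with equality as a solid and 2-fold differences as dotted lines; Zp3, Padi6, Zar1 and H1foo stand at the upper left and Hba-x, Hbb-y and Phlda2 at the lower right.

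Over all 13389 genes, 4617 were at least 2-fold higher in GV oocytes (34.5%) and 4127 at least 2-fold lower (30.8%), on the (FPKM + 1) scale, so that 65.3% differed by that size. The plot of the FPKM of each gene in both cell types shows these groups on either side of the 4645 genes within 2-fold (34.7%). At least 16-fold higher were 579 genes (4.32%) and at least 16-fold lower 194 (1.45%). A gene that passed FPKM > 1 in only one cell type had to differ in that direction, and among the 8542 genes above 1 in both, 1914 were at least 2-fold higher (22.4%) and 2574 lower (30.1%). The median log2 ratio was 0.03 for all 13389 genes, with quartiles of -1.30 and 1.48, and -0.21 for the 8542. FPKM summed over all listed genes to 688500 in E12.5 PGCs and 560962 in GV oocytes. With both cell types scaled to the same sum the median log2 ratio was higher by 0.30, and 5187 genes were then at least 2-fold higher and 3567 lower. Ratios below are given without this scaling.

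The abundant transcripts of the cell types were largely different. Among the 100 genes with the highest FPKM in each, 37 were shared. In E12.5 PGCs, Hba-x was followed by the cytoskeletal actin gene Actb, at 8722 FPKM against 817 in GV oocytes, the ubiquitin gene Ubb, at 6940.3 against 2477, the histone variant gene H3f3b, at 6577 against 664, and the nuclear noncoding RNA Malat1, at 6219.8 against 384. Rpl35, Dppa5a, Calm2 and Hmgn2 were also among the 10 highest. In GV oocytes the highest was Tmsb10, an actin-binding peptide gene, at 5855 FPKM against 3075 in E12.5 PGCs, followed by Ldhb, a lactate dehydrogenase subunit, at 5082 against 1275, and Uchl1, a deubiquitinase, at 5025 against 23.1. Zp3, Dppa3, Padi6, Zbed3, Dppa5a, Hexdc and Gm15698 made up the remainder, with Zbed3, a component of the subcortical maternal complex, at 3905 against 20.8 and Hexdc, a hexosaminidase, at 3084 against 10.4. Dppa5a was the only gene among the 10 highest of both, at 4601 FPKM in E12.5 PGCs against 3368 in GV oocytes. The genes at least 16-fold higher in GV oocytes held 19.5% of the summed FPKM of the 13389 genes there and 0.124% in E12.5 PGCs. The genes at least 16-fold lower held 0.316% in GV oocytes and 9.57% in E12.5 PGCs.

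Some germ cell markers were set beside the labels, and others of the same list are not given here. Mael was at 13.3 FPKM in E12.5 PGCs against 74.1 in GV oocytes. Among the genes compared, Dnd1 lay in a run of neighbours that were all at least 2-fold lower in GV oocytes. Ddx4, the Mvh helicase that marks germ cells, had a value of 64.0 FPKM in E12.5 PGCs against 31.9 in GV oocytes, and Dppa3, a maternal protein first expressed in PGCs, at 1288 and 4211. Pou5f1 (Oct4) was at 10.1 and 135 FPKM, and Gapdh, a glycolytic enzyme often used as a reference, at 232 and 226. In 6 of the 7 lists of markers of other cells, more genes were lower than higher in GV oocytes. The exception was the surface epithelium, with 8 of 16 genes at least 2-fold higher and 3 lower and summed FPKM of 229 in E12.5 PGCs and 258 in GV oocytes. All 11 erythroid genes were at least 2-fold lower in GV oocytes, with a summed FPKM of 18189 in E12.5 PGCs and 65.7 in GV oocytes. Of 20 granulosa and pregranulosa genes, the somatic cells that surround the oocyte, 11 were at least 2-fold lower and 4 higher, with sums of 240 and 82.6. Wt1, a transcription factor of the gonadal somatic lineage, was at 61.3 and 5.10 FPKM, and Lhx9 at 20.0 and 0.125, whereas Inha, the inhibin alpha subunit, ran the other way at 10.2 and 43.6. Of 16 mesenchyme and theca genes 10 were lower and 2 higher (sums of 321 and 72.8), of 12 endothelial genes 7 and 1 (146 and 167, of which Vwf alone was at 136 in GV oocytes and 0.735 in E12.5 PGCs), and of 8 leukocyte genes 7 and 1 (79.7 and 5.26). Of these 8, only 1 was above 1 FPKM in both cell types, so the others passed the filter through a single one, and of all 15 leukocyte genes listed 46.7% were lower. Of 14 genes of cumulus cells, 2 passed FPKM > 1, both through E12.5 PGCs, and Ptx3, Has2 and Areg are listed at 0 in GV oocytes. The leukocyte marker Ptprc is listed at 0 in both cell types. These 4 genes were chosen after their values were seen. In bulk samples, fewer cells of a type and less RNA per cell cannot be told apart, and the part of these markers in the genes lower in GV oocytes was not tested.

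Most genes far higher in GV oocytes had low values above 0 in E12.5 PGCs. Among the 163 genes at least 16-fold higher with FPKM of at least 100 in GV oocytes, the median value in E12.5 PGCs was 0.270% of that in GV oocytes. The lower quartile was 0.136% and the lowest 0%. These genes were chosen by this same ratio, so their shares had to be low. Zp3 stood at 0.142%, Gdf9 at 0.133% and Zp2 at 0.161%. Whether these fragments came from E12.5 PGCs themselves was not tested.

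Genes of the oocyte coat were among those with the largest ratios, and secreted factors were divided. Of 7 zona pellucida and sperm-binding genes above 1 FPKM in at least one cell type, 6 were at least 2-fold higher in GV oocytes, and their median log2 ratio was 7.63, against 0.03 for all genes compared. Zp1 was at 1.49 FPKM in E12.5 PGCs against 829 in GV oocytes, and Zp2 at 2.01 and 1248. Astl, the protease that cleaves ZP2 after fertilization, was at 0.376 and 271 FPKM, and Folr4, known as the egg receptor Juno, at 0.134 and 105. The exception was Cd81, a tetraspanin of many cell types, at 303 FPKM in E12.5 PGCs against 35.2 in GV oocytes. Of 17 secreted factors 9 were higher and 6 lower, with a median of 3.39. Of the 7 above 1 FPKM in both cell types 3 were higher and 2 lower, with a median of 0.16, so the larger median rests on members that passed the filter through one cell type. Oosp1, a secreted protein of the oocyte, was at 0.919 and 392 FPKM, its neighbour Plac1l at 0.152 and 218, the growth factor gene Fgf8 at 0.596 and 187, and Bmp6 at 0.0165 and 20.8, while Ptges3, a prostaglandin synthase and chaperone partner, was at 249 and 128.

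Maternal effect genes, whose products are made by the mother and needed by the embryo, were higher in 21 of 29 and lower in 2, with a median log2 ratio of 5.57. Above 1 FPKM in both cell types were 23 of them, of which 16 were higher and 1 lower. Several encode parts of the subcortical maternal complex, a protein assembly under the oocyte membrane. Nlrp5 was at 1.09 FPKM in E12.5 PGCs against 459.9 in GV oocytes, Ooep at 9.18 and 1107, Tle6 at 16.4 and 2004, and 2410004A20Rik (Khdc3) at 1.51 and 1286. Zfp57, which protects imprints in the embryo, was at 11.1 and 418 FPKM, and Tet3, the dioxygenase that oxidises 5-methylcytosine in the zygote, at 1.23 and 41.1. Dppa3 was abundant in both cell types.

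Transcription factors of the oocyte were higher in 16 of 24 genes and lower in 2 (median 3.08). Figla, a basic helix-loop-helix factor known to act on zona genes through E-boxes, was at 0.885 FPKM in E12.5 PGCs against 427 in GV oocytes. Nobox, a homeobox factor of oocyte growth, was at 0.539 and 285 FPKM, Sohlh1 at 2.25 and 172, Lhx8 at 0.153 and 20.7, and Stat3 at 0.741 and 66.3. Tbpl2, which takes the place of TBP in oocyte transcription, is listed at 0 in E12.5 PGCs and was at 24.8 in GV oocytes. Only 10 of the 24 were above 1 FPKM in both cell types, of which 2 were higher and 2 lower.

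The E-box CACCTG, counted on both strands, was found in 34.5% of the 420 RefSeq promoters of genes at least 16-fold higher in GV oocytes, compared with 18.5% of the 9880 promoters of all genes compared and 20.0% of all 27025 promoters of the same length. In genes at least 16-fold lower it was found in 15.9% of 132 promoters, and in genes within 2-fold in 15.5% of 3490. In the last 100 bases before the start, the shares were 15.7% in the genes at least 16-fold higher, 6.21% in all genes compared and 5.30% in the genes at least 16-fold lower. Any E-box (CANNTG, which includes CACCTG) was found in 74.0%, 63.5% and 63.6% of promoters in the same order and in 72.1% of all 27025, and CACGTG in 7.38%, 10.2% and 6.82%. These shares are descriptions of the sequence, and genes of 1 family share promoter sequence, as the Fbxw genes below do.

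Large gene families known for expression in the oocyte were higher almost throughout. Of 52 such genes (of 62 autosomal ones listed) above 1 FPKM in at least one cell type, 50 were at least 2-fold higher in GV oocytes and 1, Pramef8 (chosen after its value was seen, at 14.4 and 4.59 FPKM), was lower, with a median log2 ratio of 5.61. Only 8 of them were above 1 FPKM in both, of which 6 were higher. Their near copies can share reads, so the values of single genes are uncertain. Neighbours here are genes next to each other by position among the genes compared, so genes that did not pass the filter may lie between them. The longest run of such neighbours that were all at least 2-fold higher held 13 genes on chromosome 9 (mm9, from 109041968 to 109735220, 693 kb). Of these, 12 encode Fbxw proteins, F-box proteins with WD repeats that belong to ubiquitin ligases. The plot of the run of Fbxw genes shows every gene below 1 FPKM in E12.5 PGCs. In GV oocytes Fbxw24 was at 623 FPKM, Fbxw15 at 281, Fbxw16 at 178 and Fbxw18 at 149, down to 36.6 for Fbxw22, and the gene of the run outside the family, 3000002C10Rik, is listed at 0 in E12.5 PGCs. RefSeq promoters were found for 10 of the Fbxw genes in the run. In global alignments that allowed gaps, the 45 pairs among them had identical bases at a median of 88.0% of 300 positions, and from 75% to 97.7%.

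**Figure D2:**
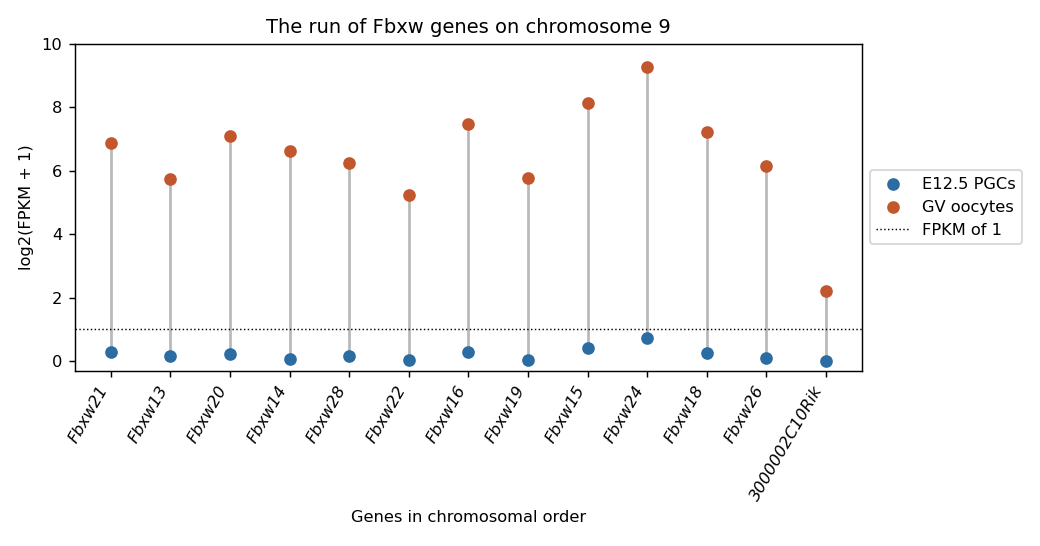
log2(FPKM + 1) of the 13 neighbouring genes of the Fbxw run on chromosome 9, in chromosomal order, in E12.5 PGCs and GV oocytes; the dotted line marks an FPKM of 1. All 13 lie below the line in E12.5 PGCs and above it in GV oocytes, where the Fbxw genes range from 36.6 FPKM for Fbxw22 to 623 for Fbxw24.

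Other families formed shorter runs. On chromosome 4 (mm9, 143027067 to 143998367) 9 neighbouring genes of the Oog and Pramef families and their unnamed relatives were higher (median log2 ratio 4.12), with Gm13084 at 0.0902 FPKM in E12.5 PGCs against 44.5 in GV oocytes. On chromosome 5 (mm9, 121098821 to 121641406) a run of 8 genes held 5 genes of the Oas1 family of oligoadenylate synthetases, among them Oas1e at 1.18 and 549.9 FPKM and Oas1c at 0.547 and 352. On chromosome 12 (mm9, 106270899 to 106461003) a run of 7 held Glrx5, Tcl1 and 5 Tcl1b genes (Tcl1 encodes a cofactor of Akt kinase), where Tcl1 was at 166 and 1016 FPKM and Tcl1b1 at 0.0542 and 144. On chromosome 1 (mm9, 21339722 to 23929156) a run of 6 held Khdc1a, Khdc1b and Khdc1c, and Khdc1b was at 0.845 and 553 FPKM. In all, runs of at least 4 higher genes numbered 193, with 955 of the 4617 higher genes. Runs of lower genes numbered 147, with 689 of the 4127 lower genes. How many such runs would arise without any grouping by position was not worked out. Among 9 neighbours lower in GV oocytes on chromosome 7 (mm9, 148042856 to 148196669) were the interferon-induced membrane protein genes Ifitm1, at 1479 FPKM in E12.5 PGCs against 78.9 in GV oocytes, Ifitm2 at 1341 and 66.4, and Ifitm3 at 626 and 118. Ifitm1 and Ifitm3 mark early PGCs.

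Genes that store, silence and shorten mRNA were higher in 24 of 44 and lower in 7 (median log2 ratio 1.21), and among the 33 above 1 FPKM in both cell types 14 were higher and 6 lower. Ybx2, the germ cell Y-box protein that packages mRNA, was at 9.15 FPKM in E12.5 PGCs against 571 in GV oocytes. Patl2, an RNA-binding protein of the oocyte, was at 0.215 and 57.7 FPKM, and Lsm14b, another component of mRNA stores, at 2.68 and 135. Btg4, an adaptor that brings the deadenylase to maternal mRNA, was at 0.543 and 309 FPKM, Zfp36, which binds AU-rich elements, at 0.706 and 69.5, and Tob2, a relative of Btg4, at 0.0739 and 17.2. Of 26 genes of small RNA pathways, 12 were higher and 4 lower (median 0.58). Gtsf1, a piRNA pathway factor, was at 13.4 and 609 FPKM, Mael at 13.3 and 74.1, Tarbp2 at 33.3 and 72.9, and Fkbp6 at 258 and 140, which is within 2-fold.

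Related genes with different uses were compared in pairs. In 34 pairs, the form with a role in germ cells or oocytes was set first and a related form second. Not every first form is specific to these cells, and H1foo was paired more than once. The ratio of the first to the second was higher in GV oocytes in 32, and at least 2-fold higher in 29. One of the 32 but not of the 29 is Eef1a2 with Eef1a1, and Eef1a2 is listed at 0 in both cell types, so this ratio follows Eef1a1 and the pseudocount alone. The germ cell forms Rec8 (0.813 and 0.206 FPKM) and Stag3 (16.6 and 4.43) were themselves lower in GV oocytes, and their partners were lower by more. Rec8 was below 1 FPKM in both cell types, and its partner Rad21 was at 39.1 and 8.65. The place of this pair among the 29 therefore rests on the pseudocount. In 21 pairs the first form was the lower one in E12.5 PGCs and the higher one in GV oocytes. The pairs were chosen for such roles with earlier results of these data known, so the numbers going one way follow in part from the choice. Among linker histones, H1f0, a replacement form, was at 390 FPKM in E12.5 PGCs against 89.4 in GV oocytes, whereas H1foo was at 2.41 and 2248. Npm1, the common nucleophosmin, was at 1006 and 255 FPKM, and Npm2 at 2.44 and 2017. Eif4e, the cap-binding protein of general translation, was at 218 and 61.4 FPKM, and its oocyte relative Eif4e1b at 0.301 and 196. The poly(A)-binding protein gene Pabpc1 was at 208 and 67.8 FPKM, and Pabpc1l at 0.179 and 99.1.

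Cell cycle, survival, import and chromatin genes were compared in the same way. Wee1, the Cdk1-inhibiting kinase of the mitotic cycle, was at 13.8 FPKM in E12.5 PGCs against 4.45 in GV oocytes, and Wee2, its oocyte relative, at 0.0386 and 48.5. Aurkb was at 36.5 and 14.8 FPKM, and Aurkc, the Aurora kinase of meiosis, at 26.5 and 87.4. The survival gene Bcl2l1 was at 13.5 and 45.7 FPKM, and Bcl2l10 at 1.09 and 824. For Kpna2, an importin alpha that carries proteins into the nucleus, the values were 651 and 271 FPKM, and for the oocyte importin Kpna7 they were 0.137 and 72.4, so that Kpna2 remained the higher of the pair. Chromatin enzymes were paired in the same way, with Tet1 at 4.02 and 1.84 FPKM and Tet3 at 1.23 and 41.1, and with the histone demethylase gene Kdm1a at 17.8 and 9.37 and Kdm1b at 2.92 and 84.4. The pairs that went the other way were Ppp2r1b and Ppp2r1a, scaffold subunits of the phosphatase PP2A, at 59.6 and 27.9 FPKM in E12.5 PGCs against 2.92 and 84.1 in GV oocytes, and Sall4 and Sall1, where Sall4 was at 189 and 55.2 and Sall1 below 0.1 FPKM in both.

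**Figure D3:**
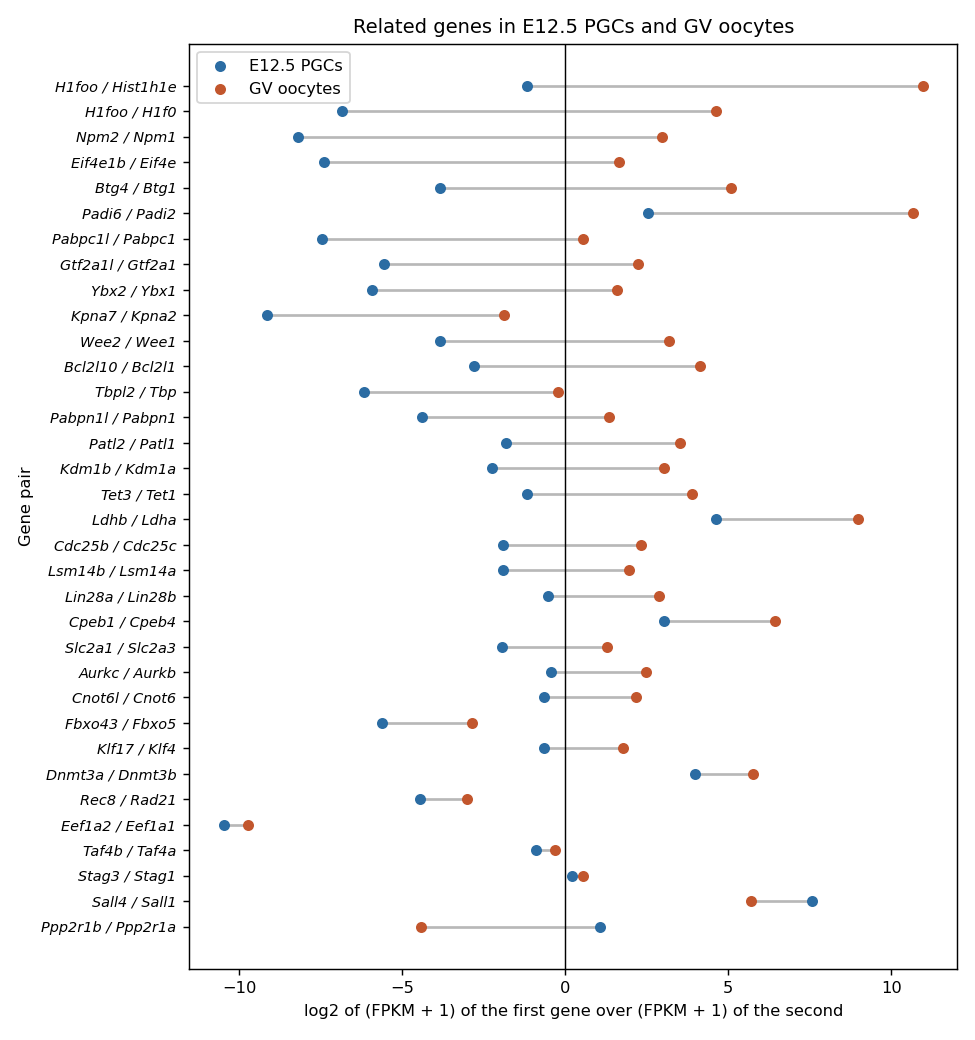
log2 of (FPKM + 1) of the first gene over (FPKM + 1) of the second, for 34 gene pairs in E12.5 PGCs and GV oocytes, 1 pooled value each. The pairs were chosen with earlier results of these data known. The GV oocyte point lies to the right of the E12.5 PGC point in 32 pairs, and only Sall4 / Sall1 and Ppp2r1b / Ppp2r1a run the other way.

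Genes of meiosis did not move as one group. Of 46 genes of meiotic arrest and resumption, 16 were higher and 12 lower (median log2 ratio 0.11). The share higher, 34.8%, was near the 34.5% of all genes compared. Of the 38 above 1 FPKM in both cell types 8 were higher and 12 lower, the opposite balance. All 8542 genes above 1 in both also had more lower (30.1%) than higher (22.4%). Mos, the kinase that starts the MAP kinase cascade of the egg, was at 0.430 FPKM in E12.5 PGCs against 266 in GV oocytes, and Mapk3, a kinase at its end, at 3.04 and 128. Gpr3, the receptor that keeps cAMP high and the oocyte arrested, was at 0.403 and 31.4 FPKM, Gja4, the connexin of the oocyte's gap junctions, at 1.65 and 298, and Pkmyt1, another inhibitory kinase of Cdk1, at 0.218 and 31.2. The mitotic cyclin gene Ccnb2 was at 353 and 72.6 FPKM, and Cks1b, a partner of Cdk1, at 529 and 152. Of 38 genes of meiotic prophase and recombination, 13 were higher and 11 lower (median 0.31). The share higher, 34.2%, was also near that of all genes compared. Of the 26 above 1 FPKM in both, 4 were higher and 8 lower, again the opposite balance, as among all such genes. Msh4, a crossover protein, was at 0.918 and 54.7 FPKM, Ccdc155, which ties telomeres to the nuclear envelope, at 0.0297 and 21, and Sycp3, of the chromosome axis, at 21.6 and 79.9. Syce2, a central element protein, was at 571 and 736, within 2-fold.

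Pluripotency and PGC genes were divided. Of 31 genes of PGC specification and identity, 16 were lower and 10 higher in GV oocytes (median log2 ratio -1.20), and of 32 genes of the pluripotency network 16 were lower and 9 higher (median -0.88). Of the 20 genes of the network above 1 FPKM in both cell types, 7 were lower and 7 higher (median -0.48). Nanos3, an RNA-binding protein that PGCs need to survive, was at 53.3 FPKM in E12.5 PGCs against 1.30 in GV oocytes. Dppa4 was at 166 and 4.06 FPKM, Zfp42 (Rex1) at 32.3 and 0.290, Fbxo15 at 27.0 and 0.531, and Sall4, a zinc finger factor shared by stem cells and germ cells, at 189 and 55.2. Nanos2, which in mice promotes the male germ cell fate, was at 0.0407 and 17.2 FPKM, and Dnmt3l, a cofactor of DNA methylation, is listed at 0 in E12.5 PGCs and was at 19.2 in GV oocytes. Pou5f1 was among the 9 higher genes of the network.

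Many genes of cell division were lower in GV oocytes. Of 59 genes of DNA replication and licensing, all above 1 FPKM in both cell types, 30 were at least 2-fold lower and 5 higher, with a median log2 ratio of -1.05. Pcna, the sliding clamp of DNA polymerase, was at 329 FPKM in E12.5 PGCs against 76.9 in GV oocytes, Rfc4, of the clamp loader, at 232 and 28.9, and Tyms, which makes thymidylate, at 264 and 113, while Dut, which removes dUTP, was at 267 and 294. Of 51 cyclins, cyclin-dependent kinases, their inhibitors and mitotic genes, 25 were lower and 10 higher (median -0.88). Top2a, a topoisomerase of dividing cells, was at 218 and 6.49 FPKM, and Cdk4, a kinase of G1 phase, at 688 and 52.0. On the other side, Ccno, an atypical cyclin, was at 0.720 and 483 FPKM, E2f1, a transcription factor of S phase, at 1.59 and 45.7, and Birc5 (survivin) at 235 and 741.

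Of 23 genes of DNA methylation and demethylation, 11 were at least 2-fold higher and 6 lower (median log2 ratio 0.25). Dnmt1, the maintenance methyltransferase, was at 11.5 FPKM in E12.5 PGCs against 303 in GV oocytes, and Uhrf1, which guides it to replicated DNA, at 1.73 and 332. Uhrf2, its relative, was at 35.7 and 1.15. Of 61 histone modifying enzymes 15 were higher, 14 lower and 32 within 2-fold (median -0.15, which becomes positive with equal sums). Kdm1b, which oocytes need to set imprints, was at 2.92 and 84.4 FPKM, Myst1, an acetyltransferase of histone H4, at 13.1 and 85.5, and Prmt1, an arginine methyltransferase, at 251 and 29.5. Among 27 linker histones and histone chaperones 8 were higher and 12 lower (median -0.80), and the variant genes H3f3b and H2afz were at 6577 and 664 and at 2368 and 268 FPKM. Of 33 imprinted genes 23 were lower and 6 higher, with a median of -2.20. Cdkn1c, a maternally expressed inhibitor of the cell cycle, was at 182 and 27.3 FPKM, and Slc38a4, a paternally expressed amino acid transporter, at 35.6 and 0.298. Gnas was at 123 and 222 and Commd1 at 493 and 352, both within 2-fold.

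Among the genes of protein synthesis, the list of cytosolic ribosomal protein genes had no member at least 2-fold higher in GV oocytes. Of 77 cytosolic ribosomal protein genes, 34 were at least 2-fold lower, with a median log2 ratio of -0.83 and a summed FPKM of 81828 in E12.5 PGCs and 44590 in GV oocytes. Rpl35 was at 4934 and 1658 FPKM, and Rps14 at 2996 and 1124. Processed copies of these genes can share their reads. Of 52 translation factors, 16 were lower and 10 higher (median -0.55). The share lower, 30.8%, was that of all genes compared, and the share higher, 19.2%, was below their 34.5%. Eef1g, a subunit of the elongation factor, was at 524 and 48.2 FPKM, whereas Eef2k, the kinase that inhibits elongation, was at 0.344 and 48.5. Of 57 spliceosome and SR protein genes, 28 were lower and 8 higher (median -0.97), with Hnrnpk, an RNA-binding protein of the nucleus, at 953 and 65.7 FPKM and Hnrnpa1 at 817 and 91.3. Among families by symbol, 9 of 12 Srsf genes were lower and 0 higher (median -1.73), the lowest median of all families of at least 10 genes, and the Fbxw family had the highest, with 16 of 21 higher (median 5.61).

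Proteasome genes and ubiquitin ligase genes differed in direction. Of 46 proteasome genes 28 were lower and 3 higher (median log2 ratio -1.32). Psmd14, the deubiquitinase of the proteasome lid, was at 275 FPKM in E12.5 PGCs against 16.1 in GV oocytes, and Psmb6, a catalytic core subunit, at 1845 and 602. Of 116 genes of SCF ubiquitin ligases and Usp deubiquitinases, 54 were higher and 20 lower (median 0.87), 12 of the 54 being the Fbxw genes on chromosome 9. These Fbxw genes passed the filter through GV oocytes alone. Among the 75 genes above 1 FPKM in both cell types, 23 were higher and 11 lower (median 0.52). Skp1a, the adaptor of SCF ligases, was at 405 and 1622 FPKM, Fbxl6 at 0.377 and 122, and Usp2 at 2.89 and 91.3, whereas Fbxo6, an F-box protein that binds glycoproteins, was at 36.4 and 0.224. Of 38 heat shock chaperones 19 were lower and 5 higher (median -1.09), with Hspa8, the constitutive Hsp70, at 1277 and 230.2 and Hsp90aa1 at 678 and 1873.

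Most genes of the respiratory chain were within 2-fold, and a few of them differed strongly. Of 83 nuclear-encoded respiratory chain genes 26 were lower, 8 higher and 49 within 2-fold (median log2 ratio -0.53). The share lower, 31.3%, was near the 30.8% of all genes compared, and the share higher, 9.64%, was below their 34.5%. Cox4i2, an alternative subunit of cytochrome c oxidase, was at 0.103 FPKM in E12.5 PGCs against 231 in GV oocytes, while its partner form Cox4i1 was at 1499.7 and 1621. Ndufaf1, an assembly factor of complex I, was at 56.3 and 1.26 FPKM, and Cox7c, another subunit of the oxidase, at 3207 and 696. Of 22 glycolytic genes 8 were lower and 3 higher (median -0.51). Eno1 was at 444 and 55.4 FPKM and Ldha, the lactate dehydrogenase of glycolytic tissue, at 50.3 and 9.10, while Ldhb was among the highest genes of the oocyte. Of 42 genes of the pentose phosphate and glutathione pathways 14 were lower and 10 higher (median -0.19, which becomes positive with equal sums). The shares lower were 36.4% of the glycolytic genes and 33.3% of these, against 30.8% of all genes compared. Glrx2, a mitochondrial glutaredoxin, was at 247 and 11.4 FPKM, Gpx8 at 87.8 and 2.78, and Sod1, a superoxide dismutase, at 2359 and 2299.6.

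**Figure D4:**
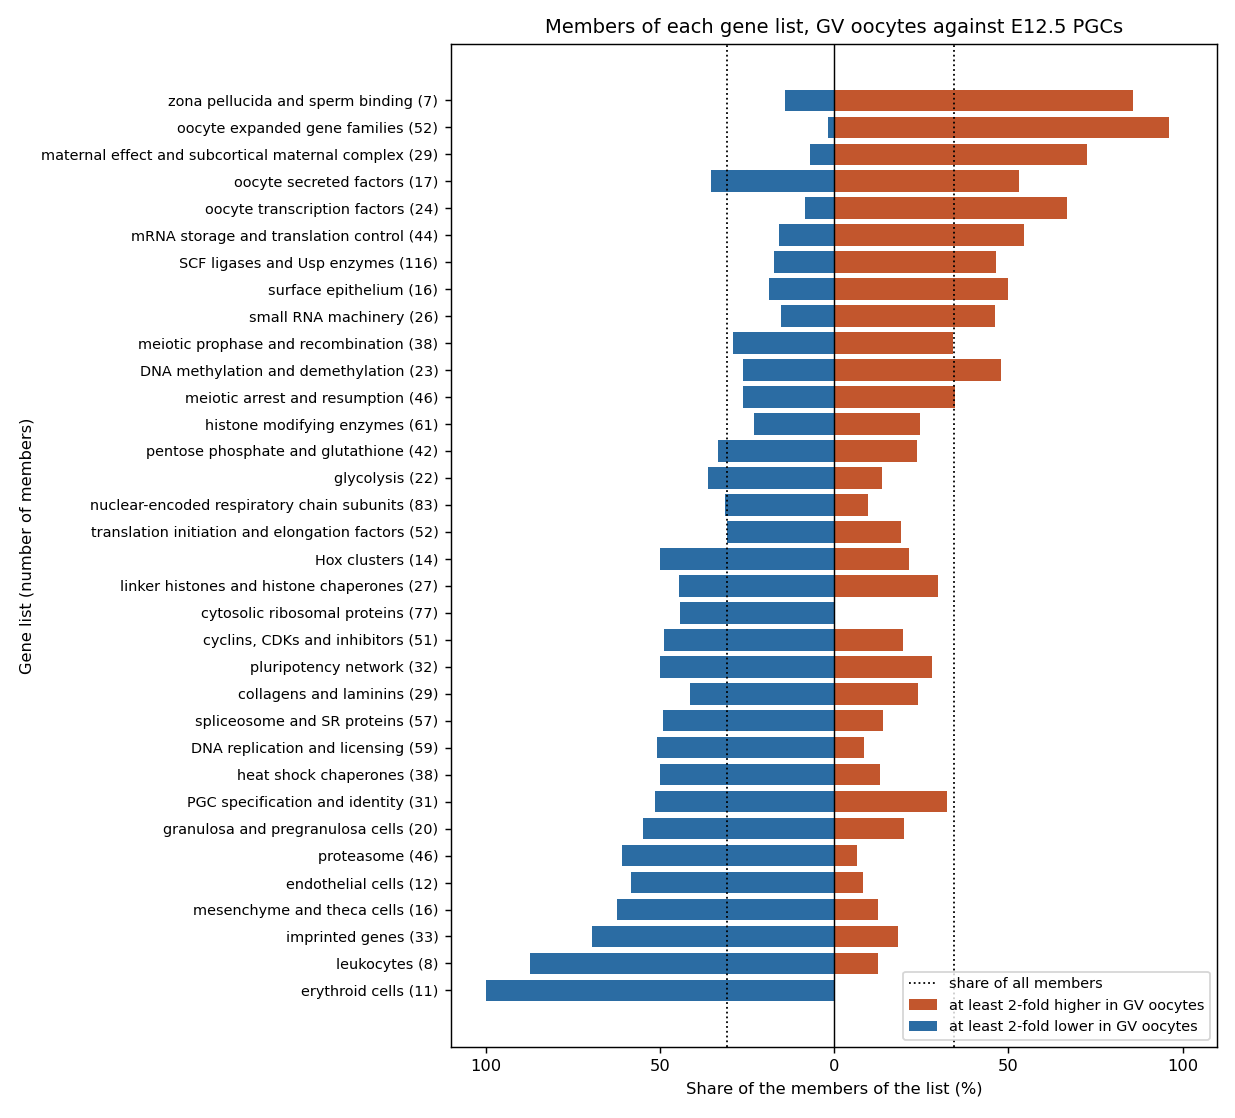
Share of the members of each gene list that were at least 2-fold higher (right) or at least 2-fold lower (left) in GV oocytes, with the number of members in brackets and lists ordered by median log2 ratio; the dotted lines mark the shares of all 13389 genes (34.5% and 30.8%). Lists of oocyte genes stand at the top and erythroid and imprinted genes at the bottom.

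The plot of the gene lists sets these shares beside those of all genes. Among lists of extracellular and positional genes, the medians of 2 lay below that of all genes and that of the surface epithelium lay above it. Of 29 collagens, laminins and other basement membrane genes 12 were lower and 7 higher (median log2 ratio -0.92), with Col1a1 at 52.8 FPKM in E12.5 PGCs against 10.4 in GV oocytes but the laminin gene Lamb1 at 15.6 and 46.7. Of 14 Hox genes 7 were lower and 3 higher (median -0.70), with Hoxd8 at 15.4 and 0.425. Only 4 of the 14 were above 1 FPKM in both cell types, of which 1 was lower and 0 higher (median -0.24). Of all 39 Hox genes listed, 17.9% were lower. Of 16 surface epithelium genes 8 were higher and 3 lower (median 0.85), with the claudin gene Cldn4 at 0.139 and 49.4, Jup (plakoglobin) at 0.528 and 36.2, and Upk3b, a mesothelial marker, at 22.1 and 0.0732.

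The ratio also varied with the base composition of the transcript. Over the 12836 genes with a transcript in the GENCODE annotation (95.9%), the median log2 ratio was -0.81 in the tenth of genes with the lowest GC content and 1.16 in the tenth with the highest, as the plot by GC content shows. Spearman's rho across genes, which are not independent replicates, was 0.25. The median GC content was 52.4% in genes at least 2-fold higher and 47.9% in genes at least 2-fold lower. With ratios centred within each of the 10 bins, 3888 genes were at least 2-fold higher and 3836 lower. Of the oocyte families 49 of 50 genes were then higher and 1 lower, and the ribosomal protein genes had 45 of 77 lower and 0 higher, but the surface epithelium genes had 4 higher and 5 lower, the granulosa genes 0 higher and 15 lower, and the median of the DNA methylation genes was -0.20. The part of GC content in the differences between the cell types was not tested.

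**Figure D5:**
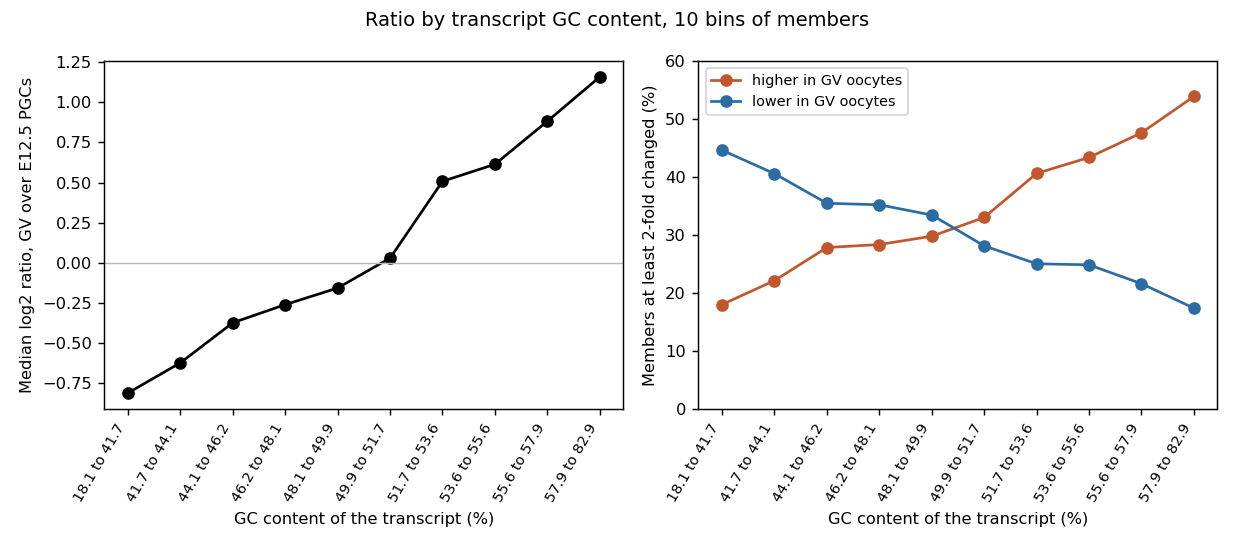
Median log2 ratio of GV oocytes over E12.5 PGCs (left) and share of genes at least 2-fold higher or lower in GV oocytes (right), in 10 bins of equal size by the GC content of the transcript (x axis, with the bounds of each bin). The median runs from -0.81 in the lowest bin to 1.16 in the highest.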

How the data were processed

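RNA was sequenced by the authors from cDNA primed with oligo(dT) and amplified by PCR, and the labels call 3 libraries E12.5 PGCs and 2 libraries GV oocytes, which were taken as such. The deposited FPKM values were made by the authors with TopHat2 and Cufflinks 2.2.1, with mm9 in the submitters' processing notes and mm10 in the paper's Methods. The coordinates in the tables are those of mm9. Each cell type has a single FPKM value per gene, pooled over its libraries, and no counts, so the depth behind a value is unknown and no test was run. Whether reads were assigned by strand is not given in the sources used here. The authors' own columns of log2 fold changes, test statistics, p-values, q-values and calls were not used.

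Genes on the 19 autosomes with FPKM > 1 in at least one cell type were kept. Log2 ratios used a pseudocount of 1 FPKM, and calls were at least 2-fold, or 16-fold, on that scale. The genes, lists and pairs were chosen with earlier results of these data known. Named genes were the 15 largest and 15 smallest ratios, the 10 highest values in each cell type, in each list the 4 highest and those at least 16-fold changed, the genes of described pairs and runs, Ddx4, Pou5f1 and Gapdh. One gene that this rule names is not reported here. Of the genes kept, 12836 were matched by Ensembl identifier to GENCODE M21 for gene type and the GC content of the longest transcript, and 9880 by symbol or synonym to RefSeq promoters. Alternatives covered the pseudocount, filters, thresholds, scaling, repeated symbols, gene types and GC content. Calculations used Python 3.11.15, pandas 2.3.3, numpy 2.4.6 and scipy 1.17.1 and were tested on simulated data.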

Additional observations from a re-analysis of the deposited data

How the results depend on the processing

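No paired analysis was possible because the tables pool the libraries of each cell type, and for the same reason no library could be left out. The values compare 2 pooled columns with no replicate check. The counts of genes at least 2-fold higher and lower in GV oocytes were 4617 and 4127. With a pseudocount of 5 they were 2589 and 2484, at a 4-fold threshold 2326 and 1835, and with FPKM > 1 in both cell types 1914 and 2574. With FPKM > 5 in at least one the higher genes numbered 3054, fewer than the 3105 lower. This lower count and the other 24 counts of these 2 results were within 1.5 times. Some of these settings could not change the counts. With no filter or with FPKM > 0.5 they were again 4617 and 4127, since genes at or below 1 FPKM in both cannot differ by more than 2-fold at this pseudocount. The values in the authors' other comparisons were identical, so they also gave the same counts. The median log2 ratio of 0.03 was 0.12 with FPKM > 0.5, -0.091 with FPKM > 5, -0.21 with FPKM > 1 in both, 0.33 with equal sums and 0.24 when centred on the genes above 1 in both.

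For gene lists, 514 of 559 values stayed inside the binomial 95% interval of their share, 34 lay outside it and 11 had the other direction the more frequent. The interval is taken over the genes of a list, which are not independent replicates. It is wide for short lists, from 15.8% to 100% for the 2 cumulus genes. The 559 also include values from the authors' other comparisons, which could not differ. The number inside is therefore no measure of how firm the lists are. Histone modifying enzymes, 24.6% higher, were 13.1% higher with a pseudocount of 5, 21.6% with FPKM > 5, 14.6% with FPKM > 1 in both, 25% among genes RefSeq calls protein-coding and 21.7% centred on GC bins, each time with more lower. The opposite direction also led for collagens and laminins with a pseudocount of 5 (17.2% lower), meiotic prophase with FPKM > 5 (29.6% higher) and above 1 in both (15.4%), meiotic arrest above 1 in both (21.1%), translation factors at 4-fold (7.69% lower) and surface epithelium centred on GC bins (25% higher). The cause was not tested. GC centring and the removal of short non-coding genes were added after seeing the data.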

Other observations

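Genes by type differed in balance. Of 55 small nucleolar RNA genes with FPKM > 1 in at least one cell type, 42 were at least 2-fold lower in GV oocytes and 8 higher (median log2 ratio -2.63). As above, some of these genes are listed over spans longer than such RNAs, and the cDNA was primed with oligo(dT). The values of this class are therefore uncertain. Of 155 lincRNA genes 85 were higher and 47 lower (median 1.09), and of 279 antisense genes 142 were higher and 78 lower (median 1.06), although reads of an antisense gene and its partner may not have been told apart. By chromosome, the median log2 ratio ran from -0.40 on chromosome 13 to 0.37 on chromosome 15, with chromosome 5 also at 0.37 and chromosome 3 at -0.37.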
